A study of Mus musculus with 8 samples.

Results

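The genes examined here were the mouse zinc finger protein genes named Zfp followed by a number, and the question was where antibodies against an HA-tagged EHMT2 gave peaks within them. EHMT2, also called G9a, is a histone methyltransferase that places H3K9me2 and has no DNA-binding domain of its own. Of 21938 protein-coding genes annotated on the autosomes, X and Y of GRCm38 (mm10), 363 carried such a symbol and were kept, and 3 genes with such a symbol were left out beforehand. A peak was assigned to a gene when it overlapped the gene body extended by 2 kb on each side. By this rule 50 of 11010 peaks of the C29F4 list, 338 of 40816 peaks of the ab9110 DMSO list, 223 of 16324 peaks of the ab9110 dTAG list and 13 of 2050 peaks of the dTAG input list lay at Zfp genes. The name fitted the genes, since the longest coding sequence of 349 of the 363 held at least 1 match to the C2H2 zinc finger pattern.

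The cells were mouse embryonic stem cells (mESCs) of a BL6/129 hybrid background, all of the EHMT2-dTAG-mcherry line, and were grown on feeder fibroblasts. In every sample, controls included, the stop codon of endogenous Ehmt2 was replaced on both alleles by a cassette with a degron, the HA tag and an mCherry reporter, so that no untagged cells served as control. Cells received DMSO or the degrader dTAG for 24 h, and dTAG leads to loss of the tagged EHMT2 protein. Of the 8 samples, 2 were DMSO ChIP samples with antibody C29F4, which the authors combined into 1 peak list from independent clones, and the others with a list were 1 DMSO ChIP, 1 dTAG ChIP and 1 dTAG input, all from a separate experiment with antibody ab9110.

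C2H2 zinc finger proteins form the largest family of DNA-binding proteins in mammals, and many carry a KRAB domain at the amino terminus. A KRAB domain binds TRIM28, which brings in the H3K9 methyltransferase SETDB1 and silences transposable elements, and the array of fingers that reads the DNA is as a rule encoded by the last exon. Genes of the family stand in clusters of related copies that share long stretches of similar sequence, and some members act without KRAB as ordinary promoter or developmental factors.

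The sequences below come from the 3 places in a gene that were set beforehand to be counted apart, namely intron, promoter and last exon. Summits in the flanks, which outnumbered last-exon summits in each ChIP list, are not shown. All are from GRCm38 (mm10), 5′ to 3′ on the strand of the gene. The first set holds intron summits of C29F4 peaks, with the 31 bases centred on the summit in capitals. They are Zfp462 at chr4:54991944-54992243 (plus strand), Zfp808 at chr13:62181975-62182274 (plus strand) and Zfp934 at chr13:62510767-62511066 (minus strand). In the Zfp462 window 31-base words were sampled every 30 bases, and each occurred once in the genome. The Zfp808 and Zfp934 windows share a repeated stretch.
Zfp462: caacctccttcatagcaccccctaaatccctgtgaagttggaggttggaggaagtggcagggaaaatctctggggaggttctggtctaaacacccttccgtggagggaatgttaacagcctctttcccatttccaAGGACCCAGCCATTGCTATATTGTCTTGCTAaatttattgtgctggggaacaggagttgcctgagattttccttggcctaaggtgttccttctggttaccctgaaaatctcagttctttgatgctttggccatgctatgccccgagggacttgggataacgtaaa
Zfp808: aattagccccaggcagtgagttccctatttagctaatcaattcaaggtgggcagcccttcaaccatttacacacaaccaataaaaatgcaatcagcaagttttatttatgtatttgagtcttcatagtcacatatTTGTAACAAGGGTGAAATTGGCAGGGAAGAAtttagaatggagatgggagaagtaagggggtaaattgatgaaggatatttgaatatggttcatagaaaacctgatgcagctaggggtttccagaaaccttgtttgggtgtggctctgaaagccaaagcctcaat
Zfp934: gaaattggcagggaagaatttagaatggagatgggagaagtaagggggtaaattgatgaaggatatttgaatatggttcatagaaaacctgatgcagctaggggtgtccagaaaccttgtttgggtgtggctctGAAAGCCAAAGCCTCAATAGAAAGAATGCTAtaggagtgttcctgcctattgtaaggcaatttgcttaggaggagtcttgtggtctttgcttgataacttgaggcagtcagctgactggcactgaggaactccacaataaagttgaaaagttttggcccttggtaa
The second set holds bases outside exons in promoter peaks, with GGGCGG (the GC box) or CGGAAG (the ETS core) on either strand in capitals. The Zfp770 stretch lies at chr2:114201470-114201769 (minus strand), the Zfp182 stretch at chrX:21062317-21062616 (minus strand) and the Zfp445 stretch at chr9:122866038-122866337 (minus strand), all in C29F4 peaks. The Zfp1 stretch at chr8:111643613-111643912 (plus strand, downstream of the start) and the Zfp583 stretch at chr7:6331286-6331513 (minus strand) lie in ab9110 dTAG peaks of high fold.
Zfp770: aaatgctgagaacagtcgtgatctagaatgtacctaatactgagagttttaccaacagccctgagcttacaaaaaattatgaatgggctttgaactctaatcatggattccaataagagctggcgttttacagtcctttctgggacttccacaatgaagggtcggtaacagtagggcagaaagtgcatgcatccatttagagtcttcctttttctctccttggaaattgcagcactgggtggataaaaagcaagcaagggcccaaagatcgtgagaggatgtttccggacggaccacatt
Zfp182: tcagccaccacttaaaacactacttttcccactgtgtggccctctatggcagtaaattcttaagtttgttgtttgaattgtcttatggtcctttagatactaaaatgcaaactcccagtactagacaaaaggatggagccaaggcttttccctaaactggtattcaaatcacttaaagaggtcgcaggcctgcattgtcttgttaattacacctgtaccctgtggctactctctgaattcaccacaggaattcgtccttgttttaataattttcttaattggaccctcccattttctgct
Zfp445: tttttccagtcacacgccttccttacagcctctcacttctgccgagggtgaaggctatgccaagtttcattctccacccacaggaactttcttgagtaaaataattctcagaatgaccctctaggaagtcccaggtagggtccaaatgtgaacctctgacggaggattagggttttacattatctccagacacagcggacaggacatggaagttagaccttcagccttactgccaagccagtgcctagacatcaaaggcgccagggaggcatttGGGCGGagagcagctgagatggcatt
Zfp1: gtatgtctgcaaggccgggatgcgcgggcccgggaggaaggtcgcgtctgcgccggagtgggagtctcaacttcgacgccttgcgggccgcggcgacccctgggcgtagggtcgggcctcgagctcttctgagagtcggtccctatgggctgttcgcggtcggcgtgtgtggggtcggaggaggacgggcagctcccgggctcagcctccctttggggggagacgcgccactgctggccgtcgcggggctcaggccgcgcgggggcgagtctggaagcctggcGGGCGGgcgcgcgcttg
Zfp583: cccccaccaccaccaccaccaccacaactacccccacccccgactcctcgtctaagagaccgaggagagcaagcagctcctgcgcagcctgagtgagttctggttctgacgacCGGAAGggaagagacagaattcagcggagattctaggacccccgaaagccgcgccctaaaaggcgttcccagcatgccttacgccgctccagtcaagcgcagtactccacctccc
The third set holds coding bases of last exons under ab9110 peaks, with matches to the finger linker in capitals, which joins one zinc finger to the next and was searched for as ACNGGNGANAANCCNTAN on both strands. The Zfp771 stretch lies at chr7:127254045-127254344 (plus strand) and the Zfp758 stretch at chr17:22375975-22376274 (plus strand).
Zfp771: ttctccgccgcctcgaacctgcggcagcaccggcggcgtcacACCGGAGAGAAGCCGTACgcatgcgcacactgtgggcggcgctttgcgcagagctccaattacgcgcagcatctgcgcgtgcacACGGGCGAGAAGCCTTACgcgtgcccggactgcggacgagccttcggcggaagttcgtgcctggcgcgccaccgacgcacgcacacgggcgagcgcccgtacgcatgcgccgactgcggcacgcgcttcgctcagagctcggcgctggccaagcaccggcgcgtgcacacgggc
Zfp758: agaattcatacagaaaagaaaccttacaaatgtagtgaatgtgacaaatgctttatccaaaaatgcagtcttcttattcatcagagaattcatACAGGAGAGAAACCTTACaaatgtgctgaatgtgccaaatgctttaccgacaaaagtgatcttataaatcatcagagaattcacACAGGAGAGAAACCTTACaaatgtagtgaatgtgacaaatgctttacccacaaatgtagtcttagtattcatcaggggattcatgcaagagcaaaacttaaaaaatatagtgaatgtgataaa
The Zfp462 window has a GC content of 48.3% and 3 CpG, whereas the stretch from Zfp1 has 73.3% and 39 CpG. The Zfp770 and Zfp182 stretches hold neither motif, Zfp445 and Zfp1 hold 1 GC box each and Zfp583 holds 1 ETS core. Over 152 aligned bases the Zfp808 and Zfp934 windows were identical at 151 (99.3%).

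The deposited lists give no read totals, and depth was inferred from the fragments stacked at each summit, solved from its fold and −log10 p. The median summit pileup was 28 fragments in the C29F4 list, 14 in ab9110 DMSO, 12 in ab9110 dTAG and 9 in the input. The local background solved in the same way was most often 3.64, 2.11, 1.23 and 0.978 fragments in the same order. The lowest background in each list, taken as its coverage, was 2.14, 2.11, 1.23 and 0.978 fragments. By that value the C29F4 and ab9110 DMSO lists were alike in coverage, and the dTAG library had 58.2% of the coverage of the ab9110 DMSO library. With 1 list per condition no comparison between lists has a replicate check and none was tested. The 95% exact (Clopper-Pearson) intervals given with shares cover counting error only, and neighbouring genes and peaks are not independent samples.

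Zfp genes held ab9110 peaks more often than protein-coding genes at large, and the difference lay at their promoters. In ab9110 DMSO 200 of 363 Zfp genes (55.1%, interval 49.8 to 60.3) had a peak, beside 45.0% of all protein-coding genes, and in ab9110 dTAG 181 (49.9%, 44.6 to 55.1) had one, beside 41.8%. A promoter summit, that is one within 1 kb of an annotated start, was found in ab9110 DMSO at 161 Zfp genes (44.4%, 39.2 to 49.6) beside 25.1% of all genes. In ab9110 dTAG it was found at 156 (43.0%, 37.8 to 48.2) beside 31.9%. A promoter summit in both treatments was present at 103 Zfp genes (28.4%, 23.8 to 33.3) beside 16.7%. The dTAG list thus kept many Zfp promoters although the cells had been treated to lose the tagged protein, and what the antibody bound there was not tested.

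In introns and last exons the Zfp shares were not higher, and only the ab9110 DMSO intron share lay below the background by more than its interval. These shares count genes whatever their length, and values per Mb are given below. An intron summit was present in ab9110 DMSO at 59 Zfp genes (16.3%, 12.6 to 20.5) beside 22.0% of all genes, and in ab9110 dTAG at 30 (8.26%, 5.65 to 11.6) beside 11.5%, a background within the interval. Last-exon summits were few: 5 genes in ab9110 DMSO (1.38%, 0.449 to 3.18, beside 1.65%) and 3 in ab9110 dTAG (0.826%, 0.171 to 2.40, beside 0.994%), neither apart from the background.

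Counted by gene, Zfp genes had C29F4 peaks no more often than other genes. The C29F4 list had a peak at 37 Zfp genes (10.2%, 7.28 to 13.8) beside 11.0% of all genes. Its promoter summits lay at 14 Zfp genes (3.86%, 2.12 to 6.39) beside 2.34%, intron summits at 19 (5.23%, 3.18 to 8.05) beside 7.91% and last-exon summits at 2 (0.551%, 0.0668 to 1.98) beside 0.273%. Each of these backgrounds lay within the interval of the Zfp genes. By summit and by length, as given below, C29F4 promoters of Zfp genes lay above the background by more than their interval. They held 28% of summits (16.2 to 42.5) beside 13.5%, and 10.4 summits per Mb (5.82 to 17.1) beside 5.17.

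The dTAG input library, without antibody, was the shallowest of the 4, so its calls are not the level the deeper ChIP libraries would reach without an antibody. It had a peak at 13 Zfp genes (3.58%, 1.92 to 6.05) beside 4.18%, with promoter summits at 7 (1.93%, 0.779 to 3.93) beside 1.25%, intron summits at 6 (1.65%, 0.609 to 3.56) beside 2.60%, and last-exon summits at 0 of 363, which allows a share of up to 1.01%, beside 0.0820%. By the fixed naming rule the strongest were at the promoter of Zfp493 (fold 5.33), an intron of Zfp810 (4.96), the promoters of Zfp712 (4.77) and Zfp78 (4.74) and an intron of Zfp345 (4.61). Of these 5, only the Zfp493 peak overlapped a ChIP peak, which was a dTAG one of fold 3.48. No C29F4 peak at a Zfp gene overlapped an input peak, while 1 of the 338 peaks in ab9110 DMSO did and 2 of the 223 in dTAG.

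**Figure D1:**
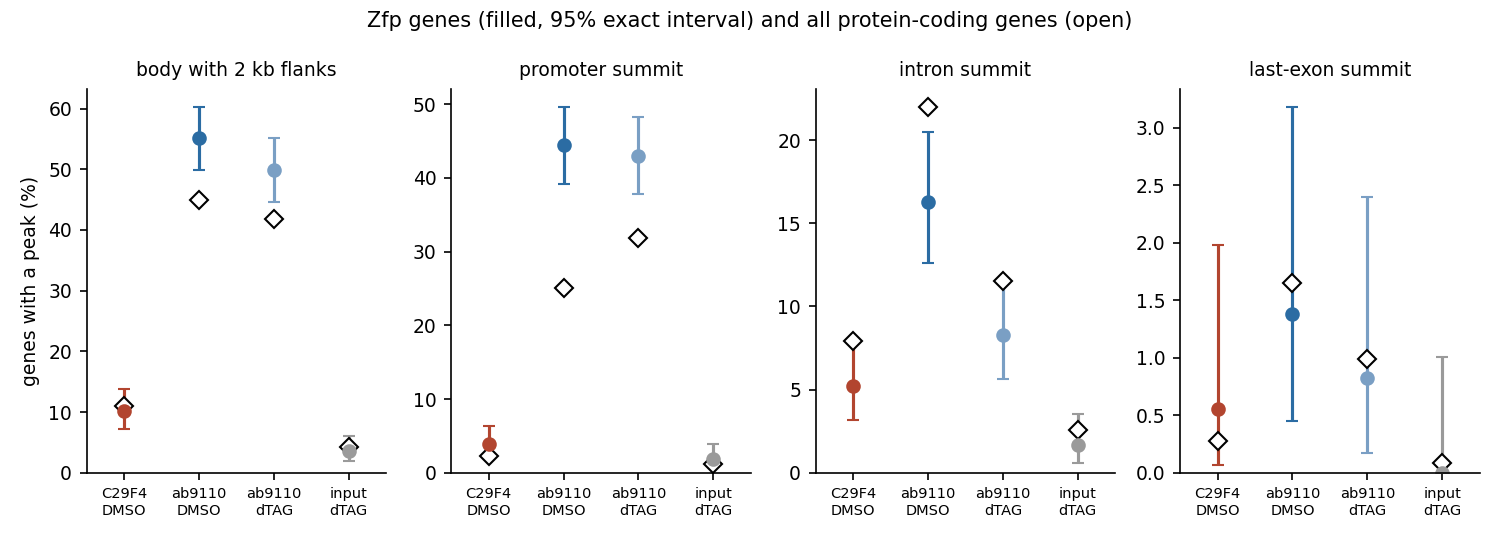
Percent of genes with a peak (vertical axis) in each of the 4 lists, for the whole body with 2 kb flanks and for promoter, intron and last-exon summits; filled points are the 363 Zfp genes with 95% exact intervals and open diamonds all 21938 protein-coding genes. The ab9110 promoter points (44.4% and 43.0%) lie above their diamonds (25.1% and 31.9%), and the vertical scale differs between panels.

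Gene by gene, 251 of the 363 members (69.1%, 64.1 to 73.9) had a peak in at least 1 ChIP list, beside 58.4% of all protein-coding genes, and 112 (30.9%, 26.1 to 35.9) in none, beside 41.6%. A peak in all 3 ChIP lists was present at 21 genes (5.79%, 3.62 to 8.71), beside 6.80%. Of the 37 genes with a C29F4 peak, 35 (94.6%, 81.8 to 99.3) also had an ab9110 DMSO peak somewhere in the extended body, beside 91.7% of all genes with a C29F4 peak. Most members with a peak had 1: in ab9110 DMSO 130 genes held 1, 39 held 2 and 31 held 3 or more, and in C29F4 the same counts were 29, 4 and 4. Peaks per gene were not counted for all protein-coding genes, so these counts are not read as a trait of Zfp genes.

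The median body length of Zfp genes, 17433 bp, was close to the 17425 bp of all genes, with a range from 1591 bp to 461699 bp at Zfp407. The spread of lengths differed, however. Of the 363 Zfp genes 67 were under 10 kb, 215 from 10 to 30 kb and 21 over 100 kb. Of the 21938 protein-coding genes 7774, 6502 and 2492 were in these ranges. The short members differed most from other genes of like length. Among genes under 10 kb, 36 of 67 Zfp genes (53.7%, 41.1 to 66.0) had an ab9110 DMSO peak beside 23.3% of all genes in that range, and 35 (52.2%, 39.7 to 64.6) an ab9110 dTAG peak beside 25.3%. Among genes over 100 kb, 19 of 21 (90.5%, 69.6 to 98.8) had an ab9110 DMSO peak beside 88.5%, and 10 (47.6%, 25.7 to 70.2) a C29F4 peak beside 47.4%. In ab9110 dTAG the long members again numbered 19 of 21, beside 66.6% of all genes over 100 kb.

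Taken over peaks instead of genes, promoters made up 28% of C29F4 summits at Zfp genes (14 of 50, 16.2 to 42.5), 52.1% in ab9110 DMSO (176 of 338, 46.6 to 57.5) and 71.7% in ab9110 dTAG (160 of 223, 65.4 to 77.6). Over all protein-coding genes the same shares were 13.5%, 29.6% and 61.7%. Introns held 60% (45.2 to 73.6), 37.3% (32.1 to 42.7) and 17.9% (13.1 to 23.6) of summits at Zfp genes, beside 78.5%, 61.8% and 31.4%. Last exons held 2 summits in C29F4 (4%, 0.488 to 13.7), 6 in ab9110 DMSO (1.78%, 0.654 to 3.82) and 3 in ab9110 dTAG (1.35%, 0.278 to 3.88), beside 1.59%, 1.89% and 1.85% at all genes, each inside the interval.

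**Figure D2:**
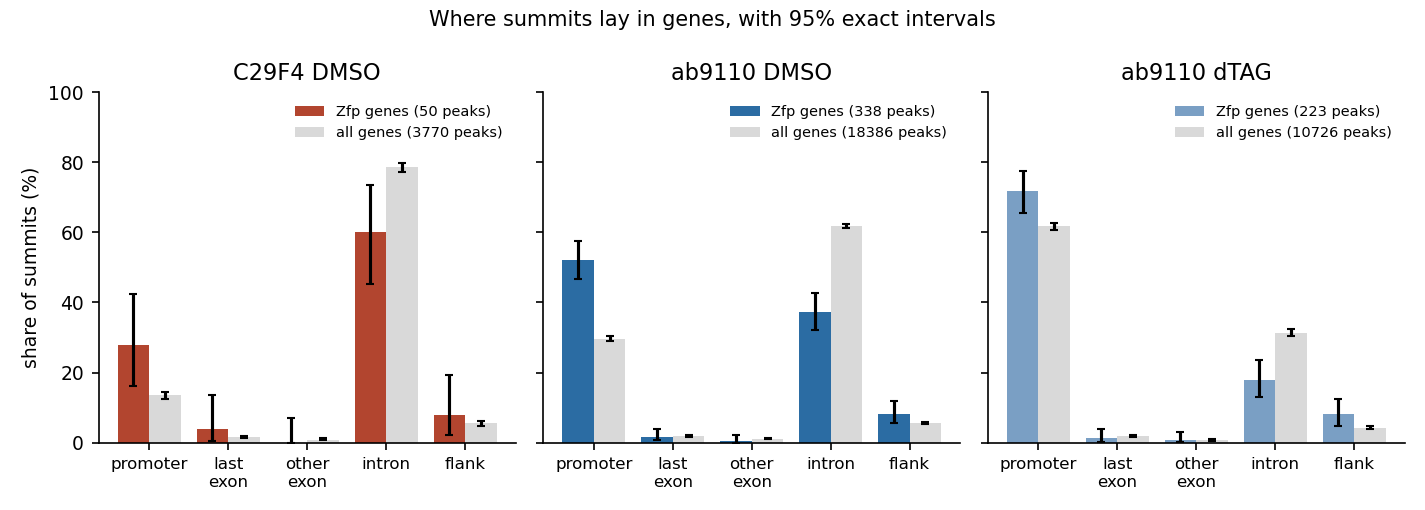
Share of summits (vertical axis, percent) by place in the gene for the 3 ChIP lists, at Zfp genes (coloured bars) and at all protein-coding genes (grey bars), with 95% exact intervals. Promoter shares at Zfp genes rise from 28% in C29F4 to 71.7% in ab9110 dTAG and intron shares fall from 60% to 17.9%. In each list the promoter share is above and the intron share below that of all genes.

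Counted per Mb, introns of Zfp genes were not poor in peaks. In these densities a summit was counted once for each gene its peak was assigned to. They held 3.59 C29F4 summits per Mb (2.44 to 5.09) beside 3.21 in introns of all genes, 14.9 in ab9110 DMSO (12.5 to 17.7) beside 12.7, and 4.63 in ab9110 dTAG (3.31 to 6.30) beside 3.98. Promoters of Zfp genes held 10.4 C29F4 summits per Mb (5.82 to 17.1) beside 5.17, 123 in ab9110 DMSO (106 to 143) beside 60.3 and 113 in ab9110 dTAG (96.2 to 132) beside 75. Their last exons, which sum to 1033 kb and have a median length of 2494 bp against 1119 bp in all genes, held 2.01 C29F4 summits per Mb (0.244 to 7.26) beside 1.93, 6.03 ab9110 DMSO summits per Mb (2.21 to 13.1) beside 11.7 and 3.02 in ab9110 dTAG (0.622 to 8.81) beside 6.83. In no ChIP list did the last exons of Zfp genes exceed those of all genes by more than their interval.

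The 14 C29F4 promoter summits belonged to 14 genes. Promoter summits in all 3 ChIP lists were found at 6 of them: Zfp445, which helps to maintain imprints, and Zfp219, Zfp422, Zfp541, Zfp617 and Zfp882, the last pair sharing 1 C29F4 peak. At Zfp219 the C29F4 peak itself overlapped no ab9110 peak. At 7 genes the promoter was called in C29F4 and ab9110 DMSO and not in dTAG: Zfp182, Zfp229, Zfp345, Zfp563, Zfp579, Zfp606 and Zfp770. Only Zfp976, with 2 promoter peaks, had neither ab9110 call. These genes are named because they are all of the C29F4 promoters, a choice made after the calls were seen. Promoters with both ab9110 calls and no C29F4 call were far more numerous, at 97 Zfp genes (26.7%, 22.2 to 31.6) beside 15.6% of all genes.

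Among C29F4 peaks that overlapped an ab9110 DMSO peak and neither a dTAG nor an input peak, the 5 of highest fold lay at Zfp2, Zfp800, Zfp963, Zfp770 and Zfp182. Fold here is the enrichment at the summit over the local background, as the peak caller wrote it. Whether an input served as control in the calling is not given in the sources used here, so the background may be that of the ChIP library itself or of an input. The peak upstream of Zfp2 (chr11:50917557-50918108) had a fold of 8.13 with C29F4, the highest of the 50, and 2.77 with ab9110. In an intron of Zfp800 the folds were 5.28 and 3.17, and in the flank of Zfp963 they were 5.03 and 4.48. At the Zfp770 promoter (chr2:114201353-114201851) they were 4.83 and 3.64, with the C29F4 summit 111 bp upstream of the start. At the Zfp182 promoter (chrX:21062079-21062680) they were 4.64 and 4.83. The ab9110 DMSO peaks at Zfp2 and Zfp800 were weak, with a −log10 q of 1.35 and 1.96 and a pileup of 12 each. The lowest −log10 q in that list was 1.31. At Zfp963, Zfp770 and Zfp182 it was 5.90, 5.34 and 6.27. The part of the lower dTAG coverage in the missing dTAG calls was not tested. In the 300-base windows around these 5 C29F4 summits, 31-base words were sampled every 30 bases. Every sampled word occurred once in the genome.

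The 5 C29F4 peaks of highest fold that overlapped both ab9110 lists were all in introns. At Zfp462, which encodes a protein that recruits EHMT1 and EHMT2 to developmental genes, the folds were 5.28 in C29F4, 7.23 in ab9110 DMSO and 3.38 in ab9110 dTAG. At Zfp521, a developmental regulator with a long finger array, they were 4.46, 5.14 and 3.94. At Zfp808 they were 4.77, 7.43 and 6.39. At Zfp52 they were 6.01, 6.32 and 4.64, and at Zfp697 they were 4.06, 3.43 and 5.58. All sampled words of the Zfp462 and Zfp521 windows were single-copy. None of the sampled words of the Zfp52 and Zfp697 windows was single-copy. Sampled words of the Zfp52 window, all of it soft-masked as repeat, occurred up to 5744 times in the genome. Since a read that fits several places was put at 1 of them at random, the peaks at Zfp52 and Zfp697 cannot be assigned to these copies alone.

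**Figure D3:**
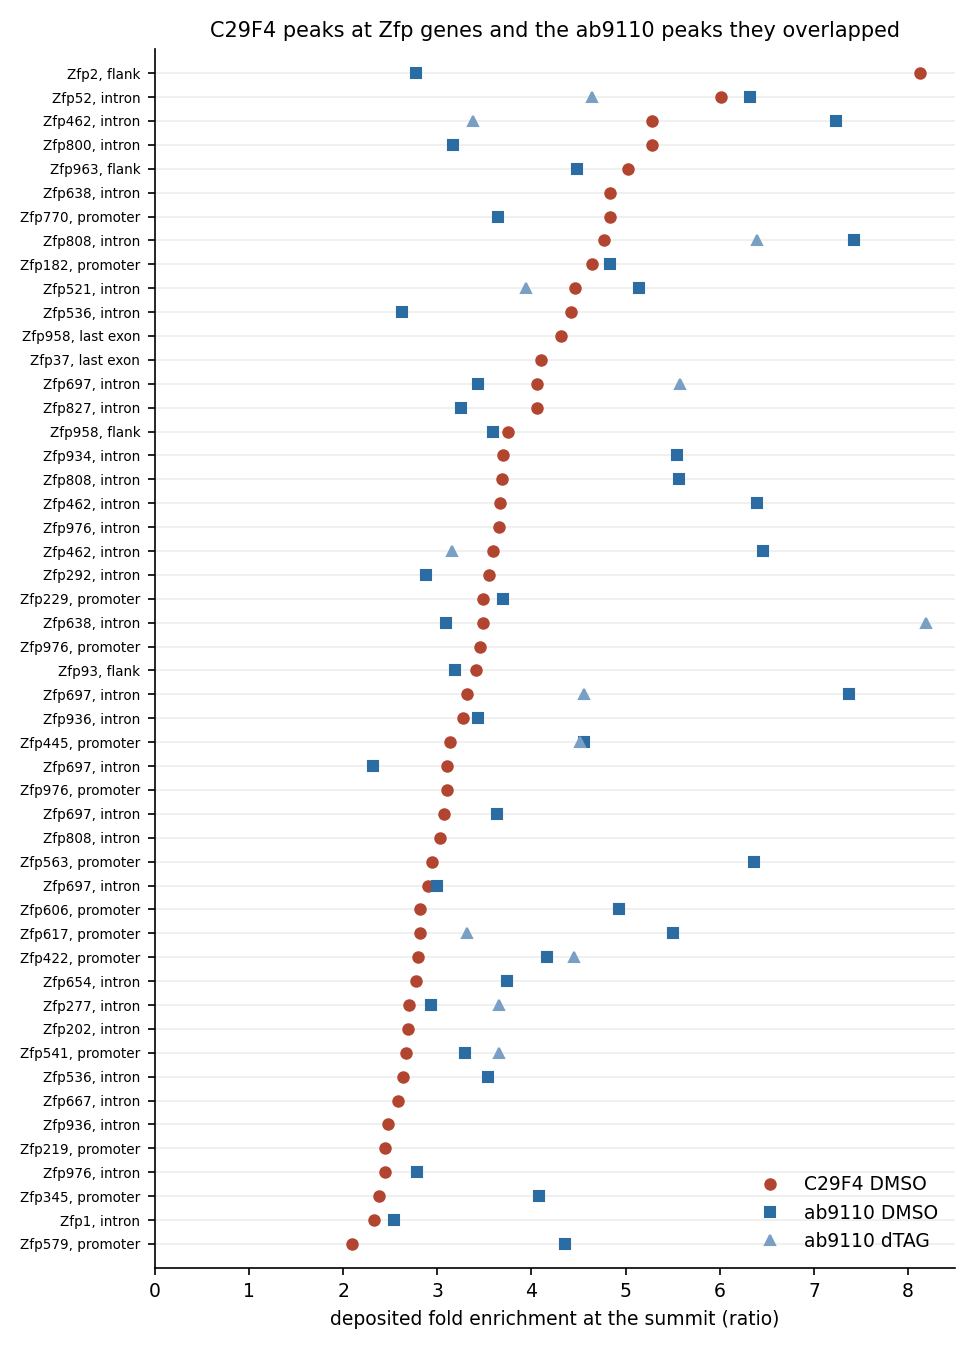
Fold enrichment at the summit (horizontal axis, ratio) of the 50 C29F4 peaks at Zfp genes (circles) and of the ab9110 DMSO (squares) and ab9110 dTAG (triangles) peaks they overlapped, 1 row per C29F4 peak labelled with the gene and the place of the summit. C29F4 folds run from 2.09 to 8.13; 39 rows have a square, 13 have a triangle, and no row has a triangle without a square.

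In full, 39 of the 50 C29F4 peaks at Zfp genes (78%, 64.0 to 88.5) overlapped an ab9110 DMSO peak by at least 1 bp, beside 67.0% of the whole C29F4 list. A dTAG peak was overlapped by 13 (26%, 14.6 to 40.3) beside 21.7%, and all 13 overlapped a DMSO peak too. Called in ab9110 DMSO and not in dTAG were 26 (52%, 37.4 to 66.3) beside 46.1%, and 11 (22%, 11.5 to 36) overlapped neither, beside 32.2%. All 4 of these list-wide shares lay within the intervals of the Zfp peaks. Thinned to the dTAG coverage, the share in DMSO and not in dTAG came to 27.0%, and the part of depth in the 52% was not tested.

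By number of C29F4 peaks the members in front were Zfp697 with 5, Zfp976 with 4, Zfp462 and Zfp808 with 3 each and Zfp536 with 2. In ab9110 DMSO Zfp462 held 15 peaks, more than any other member, of which 12 were in introns with folds up to 7.23. Zfp697 needs a reservation. Its annotated body of 371 kb spans 6 other genes, among them Hsd3b2 and Hsd3b3, whereas the transcript with its longest coding sequence spans 49471 bp. None of the sampled words in its 5 C29F4 windows was single-copy. With every word counted, 3 of the windows shared 113 to 197 words of 31 bases with one another. Without Zfp697, a choice made after seeing the data, 45 C29F4 peaks at 36 genes remained, with 31.1% at promoters and 55.6% in introns.

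Repeated sequence touched other introns as well. By the sampled words, 25 of the 50 C29F4 windows at Zfp genes were wholly single-copy. In 15 (30%) fewer than 50% of the sampled words were single-copy, beside 26.9% of C29F4 windows at all protein-coding genes. With every word counted, the Zfp808 and Zfp934 windows printed above shared 91 words, and those of Zfp976 and Zfp936 shared 41. The Zfp934 peak had a fold of 3.70 in C29F4 and 5.55 in ab9110 DMSO and no dTAG peak. The Zfp808 peak, whose window matched that of Zfp934 at 151 of 152 aligned bases, had a dTAG fold of 6.39. Of the sampled words, 55.6% were single-copy in the C29F4 window at each of these 2 peaks, and 44.4% at each of the Zfp976 and Zfp936 pair. Reads that lie within shared words cannot be assigned to 1 copy. How far the other bases of the windows separate the copies was not tested.

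Last-exon peaks were looked at one by one because finger arrays are coded there. The C29F4 list had 2, at Zfp958 (fold 4.31) and Zfp37 (fold 4.10). Neither summit lay in coding sequence and neither peak overlapped an ab9110 peak. The 6 ab9110 DMSO summits lay at Zfp773 (fold 3.76), Zfp366 (3.57 and 3.04), Zfp68 (3.22), Zfp709 (3.21) and Zfp771 (2.55), and only those of Zfp773 and Zfp771 were in coding bases. The 3 ab9110 dTAG summits lay at Zfp758 (4.04), Zfp36 (3.47) and Zfp771 (3.44), all in coding bases. Only the Zfp771 exon was called in both treatments, and its DMSO window, printed above, holds 2 matches to the linker motif. Over all peaks the linker motif was found in 1 C29F4, 1 ab9110 DMSO and 2 ab9110 dTAG windows at Zfp genes. The motif is strict and misses variant linkers. Fingers themselves were not compared with peaks, so how many peaks lay over finger-coding bases was not counted. The ab9110 last exons are named as the whole of a short list, after their values were seen.

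Members of known role were read out whatever their values, 18 in all. Of the KRAB members that silence retroelements or guard imprints, Zfp57, Zfp568 and Zfp809 had promoter peaks in both ab9110 lists and no C29F4 peak. For Zfp57, which protects methylated imprinting control regions, the folds were 3.32 in DMSO and 3.41 in dTAG, at peaks that did not overlap. For Zfp568, a repressor of a placental Igf2 transcript, they were 2.54 and 4.54, and for Zfp809, which silences proviruses through their primer binding site, 3.48 and 4.37. At Zfp445 the promoter had 3.13 in C29F4, 4.56 in ab9110 DMSO and 4.51 in ab9110 dTAG. Zfp932, which binds endogenous retroviruses, had a single dTAG peak in its flank (4.04).

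Of the factors without KRAB, Zfp281, a factor of pluripotent cells, Zfp335 and Zfp598, a ubiquitin ligase for collided ribosomes, had a promoter peak in ab9110 dTAG and none in DMSO, with folds of 5.00, 5.51 and 3.10. Zfp143, an activator bound at many promoters, had 4.56 in DMSO and 7.63 in dTAG. Among the long developmental genes, Zfp423 had 6 intron peaks in ab9110 DMSO (folds 2.55 to 3.76), 1 in dTAG (3.58) and none in C29F4. Its paralog Zfp521 had 6 peaks in ab9110 DMSO, 2 in dTAG and 1 in C29F4. Zfp536, which acts in neuronal differentiation, had 5 in ab9110 DMSO, 1 in dTAG and 2 in C29F4 (4.42 and 2.64). Zfp36, an RNA-binding protein of the CCCH type that speeds mRNA decay, had 5 in DMSO and 4 in dTAG within a body of 3470 bp and its flanks. Zfp106, also an RNA-binding protein, had 2 in each ab9110 list. No ChIP peak was listed at Zfp352, a gene of the early embryo, or at Zfp503 and Zfp703.

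Promoter peaks of ab9110 were read against dTAG treatment next. Of 161 Zfp genes with a DMSO promoter peak, 103 (64.0%, 56.0 to 71.4) also had one in dTAG, beside 66.6% of all such genes. In the other direction 103 of 156 (66.0%, 58.0 to 73.4) dTAG promoters had one in DMSO, beside 52.5% of all genes, so promoters called in dTAG alone were a smaller part of the dTAG set than at all genes. A DMSO call alone was present at 58 Zfp promoters (16%, 12.4 to 20.2, beside 8.38%), a dTAG call alone at 53 (14.6%, 11.1 to 18.7, beside 15.2%) and neither at 149 (41.0%, 35.9 to 46.3, beside 59.7%).

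By peak, 129 of 338 ab9110 DMSO peaks at Zfp genes (38.2%, 33.0 to 43.6) overlapped a dTAG peak, beside 26.6% of DMSO peaks at all genes. In the other direction 129 of 223 dTAG peaks (57.8%, 51.1 to 64.4) overlapped a DMSO peak, beside 44.7%. Of DMSO peaks, at promoters 105 of 176 did (59.7%, 52.0 to 67.0, beside 56.8%) and in introns 13 of 126 (10.3%, 5.61 to 17, beside 12.9%). Thinning each DMSO summit to the dTAG coverage, a calculation that assumes the fold at a summit stays the same, kept 86.0 promoter peaks (48.9%) and 41.1 intron peaks (32.6%) at Zfp genes. At all protein-coding genes it kept 43.7% of promoter and 37.5% of intron peaks. The order of the totals depended on depth: after thinning, the overlap of DMSO with dTAG came to 50.0% and that of dTAG with DMSO to 32.2%, and the DMSO list to 118 Zfp genes, fewer than the 181 of dTAG. The part of depth and of treatment in these differences was not tested, as each arm has 1 library.

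The strongest dTAG promoters were not those of C29F4. The 5 of highest fold were at Zfp1 (9.39), Zfp143 (7.63), Zfp740 (6.95), Zfp583 (6.84) and Zfp524 (6.84). In ab9110 DMSO the same promoters had folds of 2.58, 4.56, 2.89, 4.55 and 4.46. They were picked for their dTAG fold, so the order of the 2 values says nothing of treatment. No C29F4 peak overlapped any of the 5, although C29F4 had a peak of fold 2.33 elsewhere in an intron of Zfp1. All sampled words of their 300-base windows were single-copy, and GC contents ran from 48.3% at Zfp524 to 81% at Zfp740. Over all members the median fold was 3.43 in C29F4 (2.09 to 8.13), 3.15 in ab9110 DMSO (2.04 to 7.43) and 3.99 in ab9110 dTAG (2.50 to 9.39), beside 3.65, 3.22 and 3.81 at all genes. Folds of different libraries rest on different backgrounds and were not tested against each other.

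Promoter summits of ab9110 lay on the start itself. The median distance from the nearest start was -12 bp in DMSO (quartiles -144 and 84.5) and -2 bp in dTAG (quartiles -95 and 71.2), where negative values are upstream, beside -27 and -6 bp at all genes. The 14 C29F4 summits lay further upstream, with a median of -194 bp (quartiles -272 and -81) beside -105 bp, and 3 of the 14 were downstream. At the 11 promoters where a C29F4 and an ab9110 DMSO peak overlapped, however, the C29F4 summit was upstream of the ab9110 one at 6 and downstream at 5, with a median offset of -59 bp and a range from -324 bp at Zfp445 to 187 bp at Zfp617. Part of the ab9110 promoters belonged to a neighbour as well, since 16 of the 176 DMSO and 20 of the 160 dTAG promoter summits also lay within 1 kb of a start of a gene that is not a member.

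**Figure D4:**
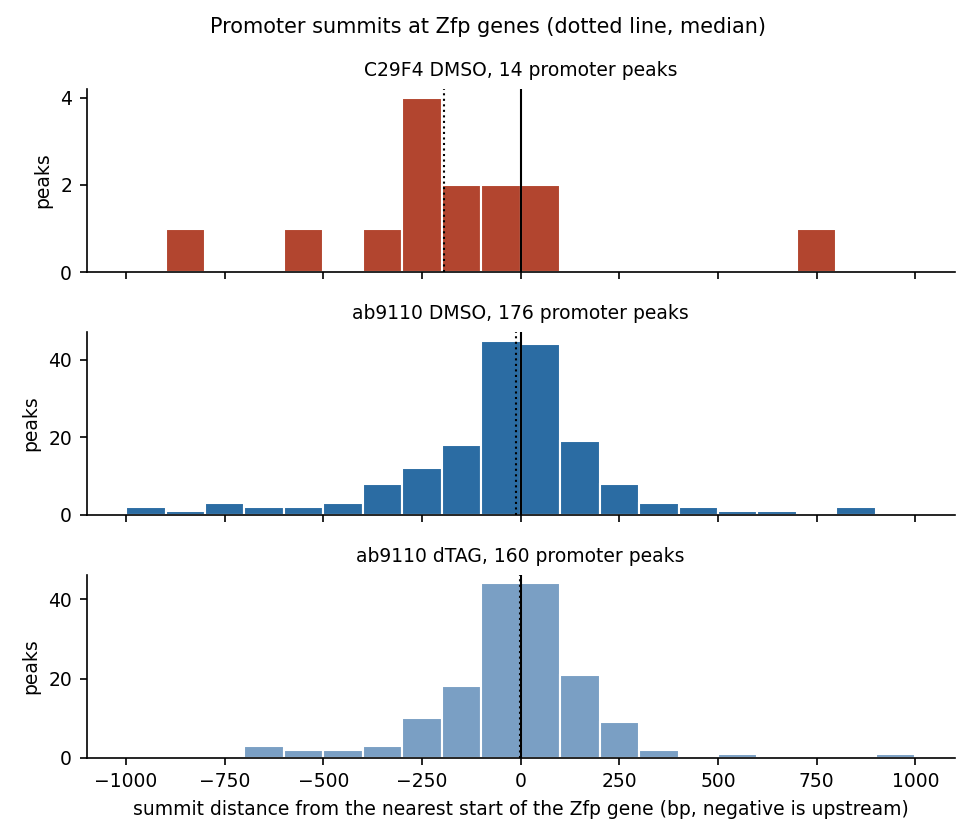
Number of promoter peaks at Zfp genes (vertical axes) by distance of the summit from the nearest start of the gene (horizontal axis, bp, negative is upstream) in the 3 ChIP lists, in 100 bp bins with the start as a solid and the median as a dotted line. The ab9110 summits gather at the start (medians -12 and -2 bp) and the 14 C29F4 summits spread upstream of it (median -194 bp).

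The base content of Zfp promoters was intermediate. RefSeq promoter sequences (250 bases before to 50 after the first listed start) were matched for 298 of the 363 members. Their median GC content was 54.3% with 13.5 CpG, beside 57% and 14 CpG for 16522 promoters of protein-coding genes. The ETS core CGGAAG was present in 109 of 298 (36.6%) beside 22.2% of all promoters, the TATA box letters TATAAA in 17 (5.70%) beside 12.9%, the GC box GGGCGG in 131 (44.0%) beside 48.0% and the E-box CACGTG in 24 (8.05%) beside 8.11%, all on both strands. In the 88 members called in both ab9110 lists the ETS core share was 39.8%, beside 37.0% of all genes called in both, and in the 116 called in neither it was 32.8%. The ETS core was thus frequent in Zfp promoters with and without a peak.

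At equal CpG content Zfp promoters with few CpG were called more often than other promoters in both ab9110 lists. Among promoters with 0 to 4 CpG, 12 of 28 Zfp genes (42.9%, 24.5 to 62.8) had an ab9110 DMSO promoter peak beside 6.98% of all genes, and 7 (25%, 10.7 to 44.9) a dTAG one beside 4.98%. With 5 to 9 CpG the shares were 42.7% (31.3 to 54.6) and 36% (25.2 to 47.9), beside 18.4% and 14.7%. With 20 or more they were 43.4% (32.5 to 54.7) and 53.0% (41.7 to 64.1), beside 36.6% and 56.5%. Across these ranges the ab9110 DMSO share of Zfp promoters lay between 42.7% and 53.6%, while that of all genes lay between 6.98% and 37.0%. Only the first listed start entered this count, whereas a promoter peak could lie at any start of the gene.

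Among the members the ab9110 promoter share differed by protein class, with intervals that overlapped in DMSO and did not in dTAG. By the strict pattern for the core of the KRAB A box, 182 were KRAB-like, 167 had C2H2 fingers without it and 14 had no C2H2 match, and in 180 of the 182 every finger was coded by the last exon. A match to the pattern misses degenerate KRAB boxes, and Zfp445 was one member without it. KRAB-like members had an ab9110 DMSO promoter peak in 38.5% (70 of 182, 31.4 to 45.9) and a dTAG one in 31.9% (58, 25.2 to 39.2), beside 25.1% and 31.9% of all protein-coding genes, so in dTAG they stood at the background. In members with fingers and no KRAB match these were 52.7% (88 of 167, 44.8 to 60.5) and 56.9% (95, 49.0 to 64.5), both above the background. The C29F4 promoter shares were 3.85% (1.56 to 7.76) and 4.19% (1.70 to 8.45), with intervals that overlap. The chr4 cluster from Zfp990 to Zfp933 held 18 KRAB-like members, with an ab9110 promoter peak at 0 in DMSO and 1 in dTAG. In the chr17 cluster from Zfp160 to Zfp13, 20 of 23 members were KRAB-like, and 11 and 6 of the 23 had one. Single-copy words made up 20.0% and 58.1% of sampled words there, beside 80.7% over the genome. The part of repeated sequence in the class difference was not tested.

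The same order held in zinc finger genes with other names. Of 87 other KRAB-like genes 29.9% (20.5 to 40.6) had a DMSO and 16.1% (9.09 to 25.5) a dTAG promoter peak, and of 214 others with 3 or more fingers and no KRAB match 35.0% (28.7 to 41.8) and 49.5% (42.6 to 56.4) had them. In both sets the KRAB-like genes had the lower dTAG share, with intervals that did not overlap, and that of the other KRAB-like genes lay below the 31.9% of all genes. Genes of both kinds named Zfp had the higher values, and the intervals of the like classes overlapped except for DMSO in genes without KRAB. Of 13 genes of the silencing pathway that KRAB proteins use, among them Trim28, Setdb1 and the heterochromatin proteins, all 13 had an ab9110 DMSO peak (beside 45.0% of all genes) and 12 a dTAG peak (beside 41.8%). A C29F4 intron peak was present at 3, Smarcad1, Atf7ip and Trim28 (23.1%, 5.04 to 53.8, beside 7.91%), and an input peak at 0, which allows a share of up to 24.7%, beside 4.18%.

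**Figure D5:**
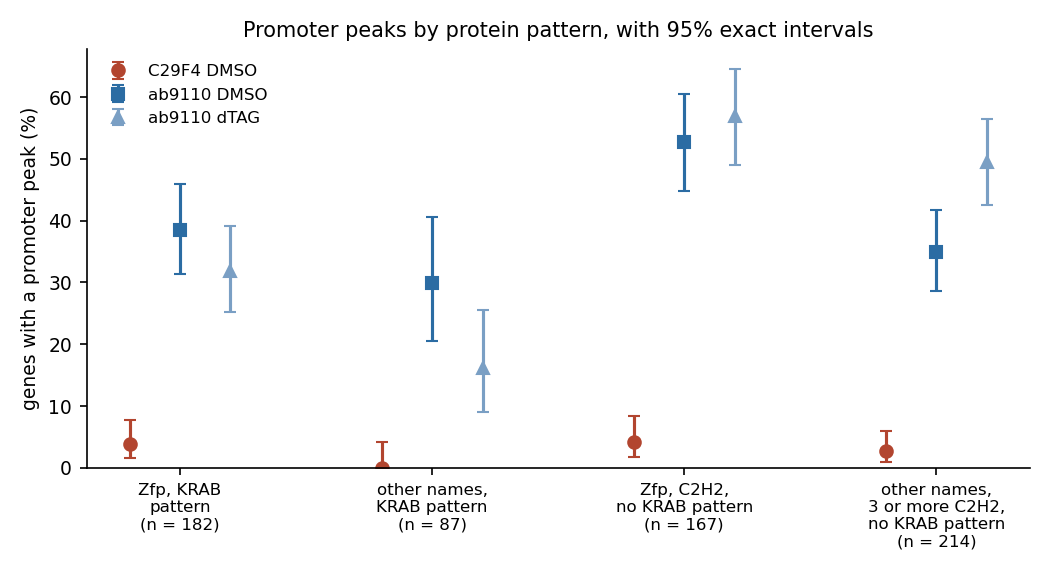
Percent of genes with a promoter peak (vertical axis) in 4 sets of zinc finger genes, by name and by the KRAB pattern, in C29F4 DMSO (circles), ab9110 DMSO (squares) and ab9110 dTAG (triangles), with 95% exact intervals. In both KRAB-pattern sets the dTAG value (31.9% and 16.1%) lies below the DMSO value and below the dTAG value of the sets without the pattern (56.9% and 49.5%).

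Members stood in clusters, and the clusters differed widely. Taking 4 or more members with gaps of at most 500 kb as a cluster, 22 clusters held 193 members and 170 stood outside. A C29F4 peak was present at 13 of 193 members in clusters (6.74%, 3.63 to 11.2) and at 24 of 170 outside (14.1%, 9.26 to 20.3), with intervals that overlap and the 11.0% of all genes inside both. An ab9110 DMSO intron peak was present at 10.4% (6.45 to 15.6) of members in clusters, below the 22.0% of all genes, and at 22.9% (16.9 to 30.0) outside, which is close to it. Promoter shares in and outside clusters were 42.5% (35.4 to 49.8) and 46.5% (38.8 to 54.3) in DMSO, beside 25.1% of all genes, and 37.8% (31 to 45.1) and 48.8% (41.1 to 56.6) in dTAG, beside 31.9%.

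The cluster with the most members, from Zfp160 to Zfp13 on chr17:21008903-23599487, held 23 members, 20 of them KRAB-like, and 6.18 C29F4, 22.4 ab9110 DMSO and 7.72 ab9110 dTAG peaks per Mb, beside 4.04, 15 and 5.99 over the genome. The next, from Zfp712 to Zfp273 on chr13:67038596-67827002, held 19 members and 3.81, 26.6 and 22.8 peaks per Mb. The third, from Zfp990 to Zfp933 on chr4:145510759-147848366, held 18 members, all KRAB-like, in 2.34 Mb and had 0 C29F4 peaks, 0 ab9110 DMSO peaks and 1 ab9110 dTAG peak. In this chr4 cluster 18.5% of sampled positions fell in assembly gaps and 20.0% of the sampled 31-base words were single-copy, beside 2.86% and 80.7% over the genome. The share of single-copy words was 58.1% in the chr17 cluster and 74.6% in the chr13 cluster. Its part in the missing peaks was not tested.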

How the data were processed

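HA ChIP-seq was measured in mESCs, and 4 peak lists of 5 samples were analysed; the inputs of the C29F4 experiment and of ab9110 DMSO were not analysed here. Per the study's methods and the submitters' processing notes, reads were aligned to mm10 with STAR 2.7.10, a read with several matches being placed at 1 random best location, duplicates were removed with Picard 2.26.0, and SAMtools 1.14, bedtools 2.30.0, MACS2 2.2.6 and deepTools 3.5.1 were used. The authors called peaks with MACS2 and kept those with a q-value under 0.05, on merged replicates for C29F4 and on 1 library each for ab9110.

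The deposited values are a fold enrichment (ratio) at each summit, its −log10 p-value and −log10 q-value, a display score and the summit offset. These are not counts of reads, and no count test was run. The pileup at a summit and its background were solved from the deposited fold and −log10 p-value.

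Genes came from GENCODE M21. Summits were classed in the order promoter, last exon, other exon (of the transcript with the longest coding sequence), intron and flank. Fingers and the KRAB pattern were searched in that coding sequence after translation. The plan named RefSeq proteins for this search, which were not used here. Words of 31 bases, sampled every 30 bases in each window, were counted over the genome. Words shared between windows were counted at every position. RefSeq promoters (GRCm38) were matched by symbol. Shares carry exact (Clopper-Pearson) 95% intervals.

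Genes were named by rule: the 5 C29F4 peaks of highest fold in last exons, in DMSO and not dTAG or input, and in both ab9110 lists, the 5 strongest dTAG promoters, the 5 members with the most C29F4 peaks, the 5 strongest input peaks, 18 members of known role and the 3 largest clusters. Members, lists and rules were chosen with earlier results of these data known. Alternatives were the q-value limit, the flank and promoter widths, the last exon used, the overlap rule, peaks free of input, DMSO thinned to the dTAG coverage, and leaving out Zfp697.

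Python 3.11.15, pandas 2.3.3, NumPy 2.4.6, SciPy 1.17.1, Biopython 1.88, pysam 0.24.0, bedtools 2.31.1, SAMtools 1.23.1 and matplotlib 3.10.9 were used. The overlap of peaks, the classing of positions in a made-up gene, the solved pileups and the thinning were tested on simulated data.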

Additional observations from a re-analysis of the deposited data

How the results depend on the processing

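No paired analysis was possible because the C29F4 replicates were merged into 1 list and every other condition had 1 library, so no replicate could be left out either. Of 149 alternative values for 20 results, 118 stayed within the interval of the reported share or within 1.5 times the reported number of genes, among them all of those without Zfp697, an alternative chosen after seeing the data, and 31 did not. With a q-value under 0.01, promoter shares were 59.6% in ab9110 DMSO, 78.8% in dTAG and 100% in the input, intron shares were 28.9%, 11.2% and 0%, the input reached 2 genes, and 63.8% of C29F4 peaks overlapped a DMSO peak. With a q-value under 0.001, peaks remained at 123 genes in DMSO and 111 in dTAG and at none in the input, promoter shares were 65.7% and 83.8%, intron shares 23.6% and 9.40%, the last-exon share in DMSO was 0%, and overlaps were 56.1% for C29F4 in DMSO and 45.3% for dTAG in DMSO. With flanks of 5 kb promoter shares were 45.4% in DMSO and 64.5% in dTAG, and with promoters of 2 kb they were 58.3% and 77.6%. When 50% of a peak had to be covered, DMSO in dTAG was 32% and dTAG in DMSO 44.8%. With summits at most 250 bp apart these were 31.1% and 47.1%, and C29F4 in DMSO was 60%. Thinned to the dTAG coverage, 118 genes were expected in DMSO, with overlaps of 48.4% for C29F4 in DMSO, 27.0% for C29F4 in DMSO and not dTAG, 50.0% for DMSO in dTAG and 32.2% for dTAG in DMSO. Thinning thus turned 2 orders: DMSO reached fewer genes than the 181 of dTAG, and the DMSO overlap was the higher one. The shallow dTAG library and 1 list per condition limit every comparison of DMSO with dTAG.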

Other observations

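By chromosome, members were most numerous on chr7, with 89, of which 59 had an ab9110 DMSO peak, 52 an ab9110 dTAG peak and 8 a C29F4 peak. Over all chromosomes 45.0%, 41.8% and 11.0% of protein-coding genes had such a peak, in the same order. Shares of all genes by chromosome were not taken, so no chromosome is read as high or low. On chr17, 25 of 41 members had an ab9110 DMSO peak and 15 a dTAG peak. On chr4, where the cluster from Zfp990 to Zfp933 lies, 6 of 30 members had a DMSO peak and 8 a dTAG peak. On chrX, 3 of 7 members had a DMSO peak, 1 a dTAG peak and 1 a C29F4 peak.

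Smaller clusters differed as well. The cluster from Zfp84 to Zfp146 on chr7:29768552-30169750, with 15 members, had 52.3 ab9110 DMSO and 34.9 ab9110 dTAG peaks per Mb and 0 C29F4 peaks. In each ab9110 list 11 of its members had a promoter peak, beside 25.1% of all protein-coding genes in DMSO and 31.9% in dTAG. The cluster from Zfp141 to Zfp819 on chr7:42473386-43618285, with 9 members, had 13.1 C29F4 peaks per Mb, the highest of the 22, beside 34.1 in ab9110 DMSO and 13.1 in ab9110 dTAG. The cluster from Zfp968 to Zfp966 on chr2:175372436-175931100 had no peak in any list, and none of its sampled 31-base words was single-copy. These clusters were chosen after their values were seen.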
